A study of Mus musculus with 58 samples.

Results

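AMPA receptor transcripts were examined in 54 single parvalbumin (PV) cells through 8 genes taken from a list fixed by name: the pore subunit genes Gria1, Gria2, Gria3 and Gria4, and the TARP genes Cacng2, Cacng3, Cacng4 and Cacng8. The deposited count table holds 25648 genes, and all 8 were found in it by symbol. RNA was read from the cytosol of 1 cell per library, drawn into a patch pipette, in the ventral subiculum (mouse strain PV-Cre::Ai9). In this strain Cre made under the parvalbumin gene switches on a fluorescent reporter, so a cell that used that gene only earlier in life can also be labelled. The Pass cells fall into 4 pools, where P is the postnatal day: female P40 with 17 cells, female P42 with 10, male P35 with 14 and male P36 with 13. They came from 3 female and 4 male animals. Cells are not tied to animals in the labels, the strain is the same in all pools, and each female pool is older than each male pool, so sex and age cannot be told apart. The 4 cells that carry the quality label Fail are described separately.

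AMPA receptors are the tetrameric channels that carry most fast excitatory input in the brain, and each is built from GluA1 to GluA4 subunits made from Gria1 to Gria4. Editing of 1 codon of the Gria2 transcript, the Q/R site, makes receptors that hold GluA2 nearly impermeable to calcium, and PV interneurons are known for AMPA receptors poor in GluA2 and for expressing Gria4. TARPs are membrane proteins that travel with the receptor, slow its closing and tie it to the postsynaptic scaffold: Cacng2 encodes stargazin (gamma-2), Cacng3 gamma-3, Cacng4 gamma-4 and Cacng8 gamma-8.

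The Q/R codon sits in a stretch of the pore loop that the 4 subunit genes share, and it is shown because the Gria2 share described here is the share of the 1 gene edited at this codon to near completion in brain. Capitals mark the codon as the genome has it, before editing, in the coding strand of GRCm38 with GENCODE vM21 transcripts.
Gria1: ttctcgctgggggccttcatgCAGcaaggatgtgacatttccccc
Gria2: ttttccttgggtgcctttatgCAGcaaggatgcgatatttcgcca
Gria3: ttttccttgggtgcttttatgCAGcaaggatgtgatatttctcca
Gria4: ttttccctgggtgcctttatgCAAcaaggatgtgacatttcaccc
The windows lie at chr11:57243073-57243117 on the plus strand for Gria1 (codon 600, exon 11 of 16), chr3:80706890-80706934 on the minus strand for Gria2 (codon 607, exon 11 of 16), chrX:41610244-41610288 on the plus strand for Gria3 (codon 612, exon 11 of 16) and chr9:4464116-4464160 on the minus strand for Gria4 (codon 608, exon 12 of 17), counted from the start codon of 1 transcript each. All 4 genes had the same base at 34 of the 45 positions, and Gria2 and Gria3 at 42 of 45. Counts per gene do not tell edited from unedited transcripts, nor the flip and flop forms.

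The TARPs end in codons for a motif that binds PDZ domains of the scaffold protein PSD-95, a feature common to the 4 members. Capitals mark the last 4 codons before the stop, and only bases of the coding sequence are shown.
Cacng2: acagccaaccgccggACCACGCCCGTA
Cacng3: ccggccaacagacgtACCACGCCTGTC
Cacng4: atgctgaaccggcggACGACTCCCGTG
Cacng8: acgctcaacaggaaaACCACGCCCGTG
These lie in the last exon of each gene, at chr15:77995152-77995178 on the minus strand for Cacng2, chr7:122768817-122768843 on the plus strand for Cacng3, chr11:107734783-107734809 on the minus strand for Cacng4 and chr7:3415576-3415602 on the plus strand for Cacng8. Cacng2 and Cacng3, the pair that made up nearly all TARP transcripts in these cells, had the same base at 20 of the 27 positions.

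Libraries of the Pass cells held 2.05 to 52.3 M counts. The labelled cell type was checked with marker lists summed in CPM, each count scaled to the total of its library. The 7 PV interneuron markers all had medians of at least 10 CPM and summed to 2574 to 8386 CPM in female P40, 4090 to 7753 in female P42, 3053 to 7653 in male P35 and 2115 to 9265 in male P36. Most of this sum was Gad1 (median 3560 CPM, against 5349 CPM for the sum), so the sum alone does not show PV identity. Pvalb itself ran from 1.18 to 788 CPM and stood at 10 CPM or more in 47 of 54 cells. It was above Sst, a marker of somatostatin interneurons, in 40 cells. In male cell 5 Sst was at 3298 CPM and Pvalb at 2.49 CPM. The 7 excitatory neuron markers summed to 36.2 to 655 CPM in female P40, 49.2 to 662 in female P42, 66.6 to 1311 in male P35 and 23.1 to 935 in male P36, with Tbr1 among those at a median of 0. Camk2a had the highest median of the 7, 93.3 CPM, against a median of 133 CPM for the sum. The sum alone therefore does not show excitatory cell content. The 5 cells with the highest sums were all male (male cells 7, 20 and 23 of P35, 15 and 29 of P36): they held 730 to 1311 CPM of these markers and 319 to 428 CPM of Slc17a7, the vesicular glutamate transporter, against a median of 9.07 CPM over all 54 cells. Their Gad1, the GABA-making enzyme, was still at 1337 to 2881 CPM (median over all cells 3560), and Pvalb was at 12.8 to 101 CPM (median 86.9). Results described beside these 5 cells are also given without them.

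All 4 pore subunit genes were counted in each of the 54 cells, and each stood at 20 CPM or more in every cell (exact 95% binomial interval of the share of cells 93.4% to 100%). Gria1 was the leading subunit. Its level ran from 249 CPM in male cell 7 to 1318 CPM in female cell 18, with a median of 584 CPM, and per kilobase of exon its median of 96.7 CPM stood above those of Gria4 (34.6), Gria3 (26.6) and Gria2 (21.8). The spread over cells was narrow for Gria1, with an SD of log2(CPM + 1) of 0.48, and wider for Gria2 (0.74), Gria3 (0.82) and Gria4 (0.86). Over all 2052 genes with medians of 100 to 1000 CPM the median SD was 0.71.

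**Figure D1:**
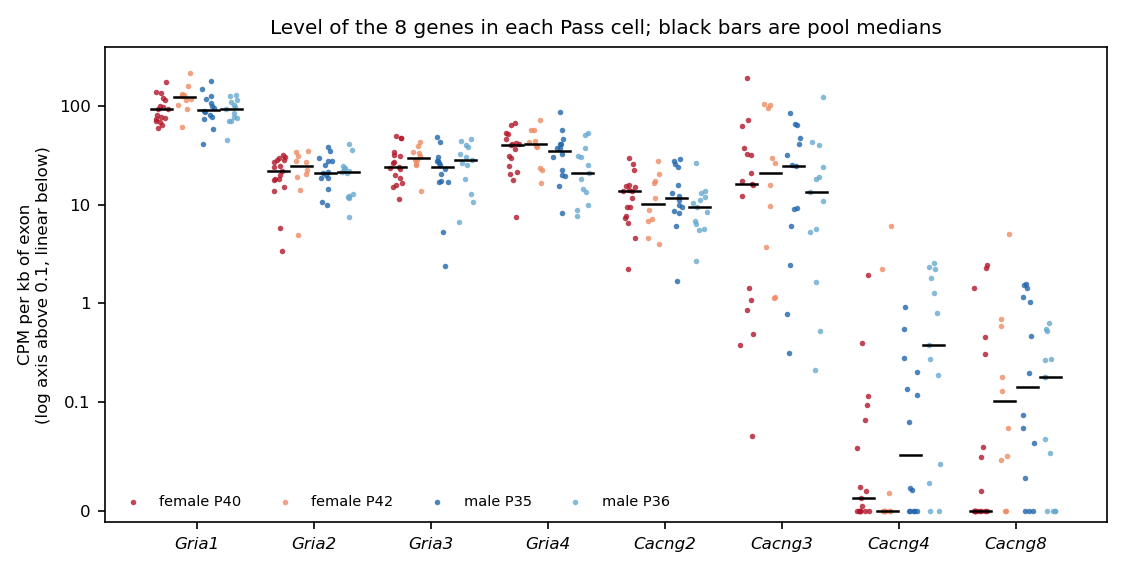
Level of each of the 8 genes in the 54 Pass cells, in CPM per kilobase of exon (axis logarithmic above 0.1, linear below), 1 point per cell, coloured by pool, with a black bar at the pool median. Gria1 sits highest in each pool, Cacng3 spreads from 0.07 to 193 CPM per kilobase, and most points of Cacng4 and Cacng8 lie below 1.

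Over union exon lengths Gria2, the subunit gene that limits calcium entry, made up a small and variable share of Gria1 to Gria4. Its mean share was 24.1% with coding lengths, described below. With each count divided by the union exon length of its gene, the Gria2 share was 12.1% ± 5.18 (SD, n = 54 cells), from 2.63% in female cell 9 to 25.7% in male cell 15. In 19 of 54 cells (35.2%, exact 95% interval 22.7% to 49.4%) the share was under 10%, and in 4 cells it was at least 20%. Gria2 was not the leading subunit in any of the 54 cells: Gria1 led in 53 and Gria3 in 1, male cell 27, where the shares were 37.1% for Gria3 and 36.7% for Gria1. The other mean shares were 54.7% ± 8.74 for Gria1, 18.4% ± 7.71 for Gria4 and 14.9% ± 6.14 for Gria3 (SD, n = 54). Below Gria1, the means of neighbours in this order differed by less than the SD over cells. Gria4 stood above Gria3 in 35 of 54 cells, and Gria3 above Gria2 in 35 of 54. In male P36 the mean Gria4 share was below that of Gria3 (14.6% and 16.98%), and in male P35 the mean Gria3 share was below that of Gria2 (13.1% and 13.4%).

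The Gria2 share depended on the length used. Gria2 has the longest annotated exons of the 4, 15548 bases in union against 2764 coding bases, while Gria1 has 6043 and 2836, Gria3 9859 and 2779, and Gria4 6305 and 2851. With coding lengths, an alternative chosen after seeing the data, the mean shares were 42.3% for Gria1, 24.1% for Gria2, 18.9% for Gria3 and 14.7% for Gria4. Gria1 then led in 47 cells, Gria2 in 5 and Gria3 in 2. Shares of raw counts were close to these (23.7% for Gria2 and 14.9% for Gria4). Over exons Gria4 stood above Gria2 in 44 of 54 cells (81.5%, exact 95% interval 68.6% to 90.7%), but over coding lengths in 8 of 54 (14.8%, interval 6.62% to 27.1%), and Gria4 stood above Gria3 in 20 of 54 over coding lengths. With the longest coding transcript of each gene as its length, the mean shares were 21.9% for Gria3 and 16.8% for Gria4. The order of Gria2, Gria3 and Gria4 was therefore not settled by these counts. That Gria1 exceeded Gria2 held in 54 of 54 cells over exons and in 48 of 54 over coding lengths. Which part of each transcript the libraries covered was not tested.

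Within pools, the Gria2 share ran from 2.63% through a median of 12.3% to 17.4% in female P40, and from 4.8% through 9.65% to 16.5% in female P42. It ran from 4.70% through 11.7% to 25.6% in male P35, and from 5.06% through 11.4% to 25.7% in male P36. All 4 pools overlapped over most of their range, and shares above 17.4% occurred in male cells only.

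**Figure D2:**
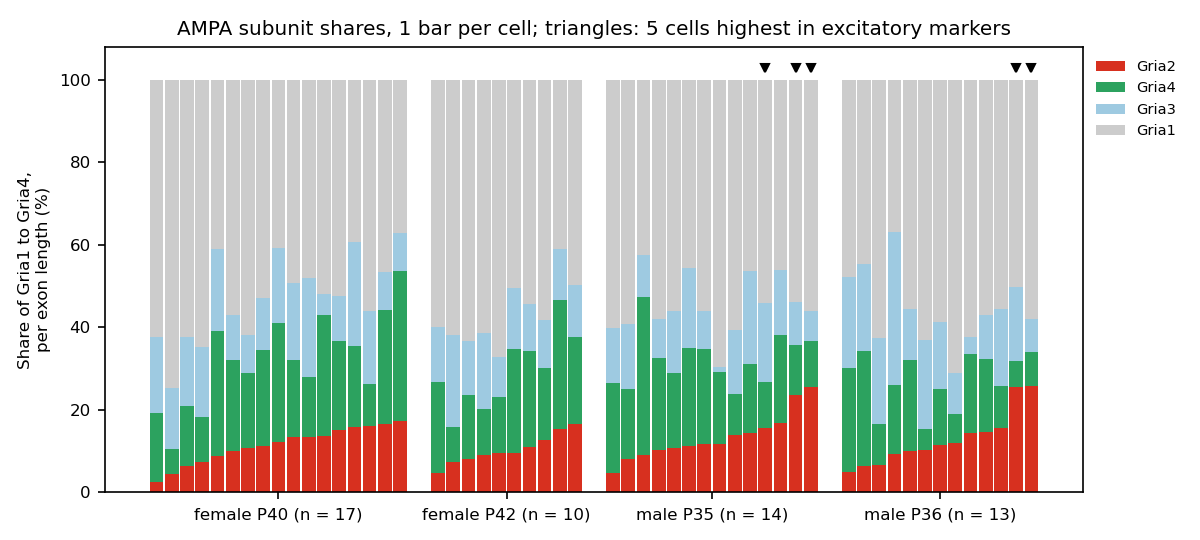
Stacked shares of Gria2, Gria4, Gria3 and Gria1 per union exon length in percent, 1 bar per Pass cell, in order of Gria2 share within each pool, with triangles over the 5 cells highest in excitatory markers. Gria1 fills the top of the bars with a mean of 54.7%, and 4 of the 5 marked cells have the highest Gria2 shares, 23.6% to 25.7%.

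The 4 cells with the highest Gria2 share were also among the 5 cells highest in excitatory neuron markers. Male cells 15, 7, 29 and 20 had Gria2 shares of 25.7%, 25.6%, 25.6% and 23.6%, and the fifth, male cell 23, had 15.5%. In these 5 cells 5 or 6 of the 7 markers stood at 1 CPM or more. Female cell 12, next in marker sum with 662 CPM and all 7 markers at 1 CPM or more, had a share of 8.15%. That share ranked 43 of 54. The markers of this cell were of another make-up, with Slc17a7 at 32.8 CPM, against 319 to 428 CPM in the 5 cells. Camk2a gave 322 CPM of its sum, against 55.2 to 274 CPM in the 5 cells. Without the 5 cells the Gria2 share was 10.99% ± 3.72 (SD, n = 49), from 2.63% to 17.4%. Across all 54 cells the share and the log2 marker sum had a Spearman rho of 0.48 (Pearson r = 0.61), and 0.42 (r = 0.51) without the 2 cells farthest from the median of the marker sum. Within pools rho was 0.65 in female P40, 0.31 in female P42, 0.52 in male P35 and 0.25 in male P36. Without the 5 cells, a comparison added after seeing the data, rho was 0.32 (r = 0.35, n = 49) over all pools, 0.04 in male P35 and -0.23 in male P36. As Camk2a had the highest median of the 7 markers, rho with their sum does not describe excitatory cell content alone. Both quantities come from the same libraries, cells of an animal are not independent, and the part of the markers in the Gria2 share was not tested.

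**Figure D3:**
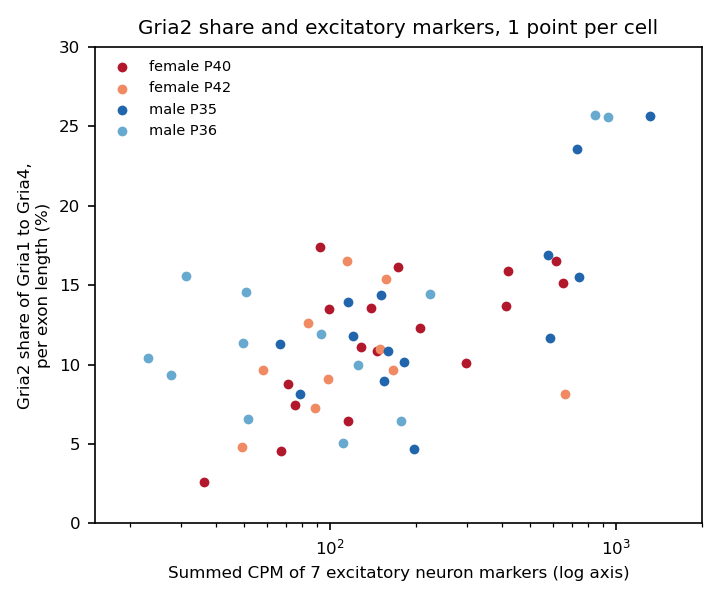
Gria2 share in percent against the summed CPM of the 7 excitatory neuron markers (log axis), 1 point per Pass cell, coloured by pool. The 4 points above 20% are male cells with marker sums of 730 to 1311 CPM, and the 2.63% of female cell 9 comes with a sum of 36.2 CPM.

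Gria4, the subunit gene linked to fast receptors of PV interneurons, was present throughout but used to different degrees. Its level ran from 47.3 CPM through a median of 252 to 425 CPM in female P40, and from 105 through 262 to 456 CPM in female P42. In male P35 it ran from 51.9 through 221 to 548 CPM, and in male P36 from 48.5 through 132 to 334 CPM. The ranges overlapped, with the lowest median in male P36. As a share of the 4 subunits over exons, Gria4 made up 4.96% in male cell 25 and 38.5% in male cell 17, at least 25% in 10 of 54 cells and under 10% in 7. Cells with more Pvalb tended to hold more Gria4 (rho = 0.34, n = 54), but within pools rho was 0.75 in male P36 and 0.12 to 0.23 in the other pools. With Sst, the marker of somatostatin interneurons, the Gria4 share had a rho of -0.33 (r = -0.33). In the 40 cells with Pvalb above Sst the Gria4 share was 20.01% ± 7.88 and the Gria2 share 11.4% ± 4.86 (SD). Without the 5 cells highest in excitatory markers the Gria4 share was 19.2% ± 7.55 (SD, n = 49).

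Gria1 ran from 364 CPM through a median of 570 to 1068 CPM in female P40, and from 375 through 749 to 1318 CPM in female P42. In male P35 it ran from 249 through 559 to 1085 CPM, and in male P36 from 276 through 569 to 785 CPM. The pools overlapped, with the highest median in female P42 and the lowest maximum in male P36.

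Gria2 ran from 53.0 CPM through a median of 345 to 500.1 CPM in female P40, and from 77.2 through 384 to 554 CPM in female P42. In male P35 it ran from 155 through 330 to 599.9 CPM, and in male P36 from 118 through 332 to 649 CPM. The 3 levels under 100 CPM were in female cells 9, 17 and 28, and the pool medians lay close together.

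Gria3, whose gene lies on the X chromosome, ran from 114 CPM through a median of 241 to 497 CPM in female P40, and from 136 through 295 to 430 CPM in female P42. In male P35 it ran from 23.4 through 237 to 477 CPM, and in male P36 from 65.5 through 285 to 455 CPM. The upper ends were alike in all pools, and the lowest levels were in male cells. Among pairs of pore subunits the highest rho over the 54 cells was 0.28, for Gria1 with Gria3 and for Gria1 with Gria4. Gria2 and Gria4 had a rho of 0.23 in all, with 0.48 and 0.76 in female P40 and P42 and -0.09 and -0.22 in male P35 and P36.

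Among the TARPs, these cells used Cacng2 and Cacng3 and hardly any Cacng4 or Cacng8. Cacng2 and Cacng3 together made up at least 95% of the 4 TARPs in 40 of 54 cells and at least 90% in 50 of 54. Their balance differed from cell to cell far more than that of the pore subunits. The Cacng2 share was 45.1% ± 31.6 (SD, n = 54), from 2.06% in male cell 15 to 98.4% in male cell 16, and the Cacng3 share was 51.4% ± 32.6. Cacng2 made up 80% or more in 13 cells, Cacng3 did so in 13, and Cacng2 lay between 20% and 80% in 27.

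Cacng3 was the leading TARP in 33 cells and Cacng2 in 21 (38.9%, exact 95% interval 25.9% to 53.1%). With coding lengths, or with raw counts, the order turned round: Cacng2 led in 31 cells and Cacng3 in 23, and the mean Cacng2 share was 55.4% and 55.6%. The wide spread between cells stayed with coding lengths, where the Cacng2 share ran from 3.91% to 99.2%. Low and high Cacng2 shares occurred in every pool, from 3.68% to 97.9% in female P40, 4.54% to 93.9% in female P42, 3.83% to 98.4% in male P35 and 2.06% to 98.4% in male P36. Cacng2 led in 6 of 17 cells of female P40, 4 of 10 of female P42, 6 of 14 of male P35 and 5 of 13 of male P36.

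The spread came mostly from Cacng3. Its level ran from 0.19 CPM in female cell 3, the deepest library, where 10 counts were seen, to 536 CPM in female cell 7, and it was under 10 CPM in 14 of 54 cells (25.9%, exact 95% interval 14.96% to 39.7%). These 14 cells were 6 of female P40, 2 of female P42, 3 of male P35 and 3 of male P36. The SD of log2(CPM + 1) was 2.38 for Cacng3 and 0.91 for Cacng2, where the 4706 genes with medians of 20 to 100 CPM had a median of 1.49 and a 90th percentile of 2.04. Cacng2, by contrast, stood at 9.31 to 164 CPM with a median of 62.0 CPM, and at 10 CPM or more in 53 of 54 cells.

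By pool, Cacng3 ran from 0.19 CPM through a median of 45.0 to 536 CPM in female P40, and from 3.12 through 59.0 to 293 CPM in female P42. In male P35 it ran from 0.88 through 69.5 to 239 CPM, and in male P36 from 0.59 through 37.7 to 345 CPM. High and low cells were found in all 4 pools. Cacng2 ran from 12.4 CPM through a median of 76.8 to 164 CPM in female P40, and from 22.1 through 56.7 to 154 CPM in female P42. In male P35 it ran from 9.31 through 64.8 to 161 CPM, and in male P36 from 14.8 through 52.5 to 146 CPM. The pools overlapped for this gene as well.

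**Figure D4:**
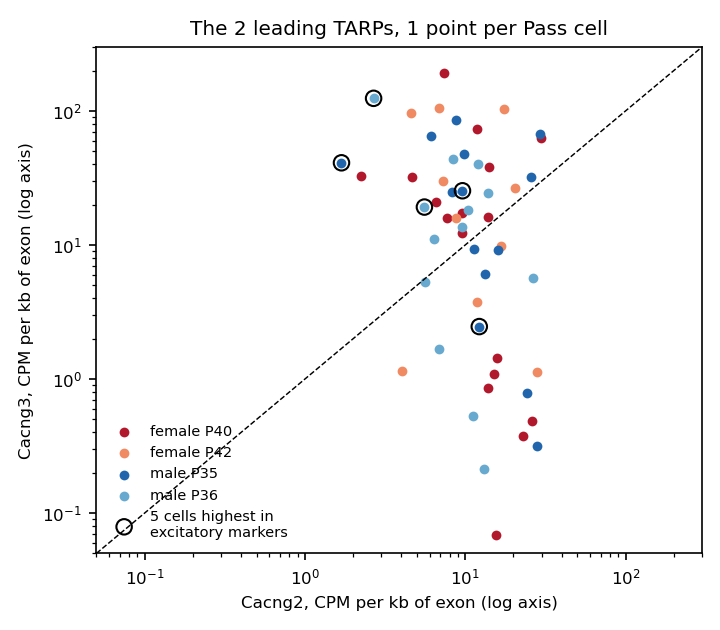
Cacng3 against Cacng2 in CPM per kilobase of exon, both axes logarithmic, 1 point per Pass cell, coloured by pool, with rings around the 5 cells highest in excitatory markers and a dashed line of equal level. Cacng2 spans 1.69 to 29.7 and Cacng3 spans 0.07 to 193, and points of all 4 pools lie on both sides of the line.

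Cells with more Cacng3 tended to have less Cacng2, with a Spearman rho of -0.36 (Pearson r = -0.38) over 54 cells and a rho of -0.24 to -0.48 within each pool. Cacng3 also went with Gria4 (rho = 0.40, r = 0.42) and with Gria2 (rho = 0.35, r = 0.33), and 0.40 was the largest absolute rho among the 28 pairs of members. The Cacng2 share had a rho of -0.43 with the excitatory marker sum, from -0.32 to -0.77 within pools. Of the genes in this sum, Camk2a had the highest median. The 5 cells highest in those markers had Cacng2 shares of 83.3%, 21.9%, 2.06%, 27.3% and 3.83% in the order of their marker sums, so both TARPs led among them, and without them the mean share was 46.9% and its rho with the marker sum was -0.41 (n = 49). Without these cells rho of Cacng3 was -0.31 with Cacng2, 0.52 with Gria4 and 0.29 with Gria2. The part of the markers in the TARP balance was not tested.

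Cacng4 and Cacng8 were near or below the counting limit in most cells. Cacng4, known from the developing brain and from glia, had at least 1 count in 33 of 54 cells (61.1%, exact 95% interval 46.9% to 74.1%) and reached 1 CPM in 13. Cacng8, the main TARP of hippocampal pyramidal cells, had a count in 36 of 54 (66.7%, interval 52.5% to 78.9%) and reached 1 CPM in 16. By pool, Cacng4 was counted in 10 of 17 cells of female P40 (up to 7.01 CPM), 3 of 10 of female P42 (up to 21.96 CPM), 9 of 14 of male P35 (up to 3.31 CPM) and 11 of 13 of male P36 (up to 9.26 CPM). Cacng8 was counted in 8 of 17, 8 of 10, 11 of 14 and 9 of 13 cells of the same pools, up to 5.8, 11.95, 3.71 and 1.47 CPM. Neither was counted in 10 cells, and both were in 25. In cells with 0 counts, 3 counts would have been 0.10 to 1.46 CPM, so levels up to there were not detectable at this depth. Cacng4 exceeded Cacng2 or Cacng3 in 2 cells.

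Female cell 20 held the highest level of both, 21.96 CPM of Cacng4 and 11.95 CPM of Cacng8. This cell also held the highest Pdgfra (94.1 CPM) and Sox10 (64.0 CPM), markers of oligodendrocyte precursors, and 206 CPM summed over the 5 genes of that list, all 5 at 1 CPM or more. The list summed to 0.22 to 93.9 CPM in female P40, 0.06 to 206 in female P42, 0.10 to 69.7 in male P35 and 0.25 to 227 in male P36, with a median of 0 for Cspg4 over the 54 cells. Male cell 29, with the highest sum of 227 CPM, had 1.36 CPM of Cacng4 and 0.62 CPM of Cacng8. Female cell 3, with a sum of 93.9 CPM, had 0.02 CPM of Cacng4 and 3.38 CPM of Cacng8. The next highest Cacng4 levels were 9.26, 8.47 and 8.05 CPM in male cells 11, 15 and 9. Precursor markers summed to 3.86, 6.73 and 0.34 CPM in these male cells. The part of these markers in the level of the 2 TARPs was not tested.

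Of the other auxiliary subunits that bind AMPA receptors, 8 genes were examined. Cnih2, a cornichon that aids export of the receptor and slows its closing, was the most abundant per exon length. It stood at 89.996 CPM per kilobase, against the 96.7 of Gria1. Without division by length its median was 123 CPM (14.9 to 429), against 584 CPM for Gria1. Union exons span 1369 bases for Cnih2 and 6043 for Gria1, so how the 2 genes compare depended on the length. Gsg1l and Shisa9 (also called CKAMP44), which both change receptor kinetics, had medians of 51.9 and 52.2 CPM, 13.2 and 9.96 CPM per kilobase, near those of Cacng2 and Cacng3. Cnih3 had a median of 11.3 CPM and a maximum of 268 CPM in male cell 29. Shisa7 had 6.81 CPM. Shisa6, Cacng5 and Cacng7 had medians of 0.08, 0 and 0 CPM, and the 2 highest cells gave 54.5%, 64.2% and 66.9% of their counts.

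Adarb1, the gene of ADAR2, the enzyme that edits the Q/R codon, was counted in each of the 54 cells, at 3.83 to 211 CPM with a median of 85.9 CPM. Adar, the gene of ADAR1, had a median of 65.5 CPM, from 6.24 to 195 CPM. Adarb2, whose product has no known editing activity, had a median of 0.03 CPM, and 2 cells held 85.6% of its counts, with the most in male cell 11 (105 CPM). The level of the enzymes does not give the edited share.

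Of 17 genes that traffic or cluster AMPA receptors, 14 had medians of at least 10 CPM. Nsf, the ATPase that binds GluA2 and recycles SNARE complexes, was highest per exon length with 122 CPM per kilobase (median 1019 CPM), followed by Olfm1, an olfactomedin protein found with native AMPA receptors, with 119 (median 422 CPM). Dlg4, the gene of PSD-95, the scaffold that the end of the TARPs binds, had a median of 0.39 CPM and was counted in 44 of 54 cells. The 2 highest cells gave 66.99% of its counts. In the NMDA receptor, which opens slowly and shares synapses with AMPA receptors, the obligate subunit gene Grin1 stood at 24.4 CPM per kilobase and Grin2b at 6.19, medians over 54 cells. Grin1 was thus nearer to Gria2 and Gria3 than to Gria1. Without division by length the medians were 237 CPM for Grin1 and 154 CPM for Grin2b. Their union exons span 9700 and 24842 bases, so the gap between these 2 genes depended on the length. Grin2a had a median of 1.14 CPM with 113 CPM in male cell 29.

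Female and male cells were compared over the 4 pools, whose counts were summed, and no gene of the 8 passed the test. Pool sums were fitted with edgeR (quasi-likelihood F test, p adjusted after Benjamini and Hochberg over 14933 genes), and 0.0134% of them, 2 genes, were called at an adjusted p under 0.05. None of the 8 had an unadjusted p under 0.05, where the background was 5.51% (2.65% higher and 2.86% lower in female pools), and DESeq2 also called 0 of 8. The p-values rest on the spread between 2 pools per sex, which share no animal only if each animal was used at 1 age. In that case 1 of the 2 female pools holds cells of only 1 animal, as 3 female animals were used. Fewer cells expressing a gene and less RNA per cell cannot be told apart in these sums.

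Gria1 was at 655 and 779 CPM in the female pools (P40 and P42), against 647 and 594 CPM in the male pools (P35 and P36), in CPM on library sizes scaled by trimmed means (TMM). The log2 difference, female minus male, was 0.21 (SE 0.17, edgeR adjusted p = 0.984). Gria2 was at 328 and 338 CPM in the female pools, against 359 and 340 CPM in the male pools (log2 difference -0.07, SE 0.16, edgeR adjusted p = 0.999). For Gria2 the difference was smaller than its SE.

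Gria3 was at 308 and 298 CPM in the female pools, against 245 and 255 CPM in the male pools (log2 difference 0.28, SE 0.17, edgeR adjusted p = 0.975). Gria4 was at 234 and 240 CPM in the female pools, against 232 and 151 CPM in the male pools (log2 difference 0.31, SE 0.23, edgeR adjusted p = 0.984). Without male P36 the difference for Gria4 was 0.03, and without male P35 it was 0.65. The low pool for Gria4 was thus male P36.

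Cacng2 was at 78.3 and 69.8 CPM in the female pools, against 84.6 and 58.3 CPM in the male pools (log2 difference 0.05, SE 0.28). Cacng3 was at 43.4 and 110 CPM in the female pools, against 84.9 and 55.9 CPM in the male pools (log2 difference 0.12, SE 0.44). In summed counts deeper libraries weigh more. Female cell 3, with the lowest Cacng3 level of 0.19 CPM, gave 52.3 M of the 229 M counts of female P40. For Cacng3, the 2 female pools lay farther apart than the sexes, and the difference was 0.64 without female P40, -0.69 without female P42 and -0.15 without male P36. For Cacng2 it was -0.19 without male P36 and 0.34 without male P35. Cacng4 was at 0.29 and 3.32 CPM in the female pools, against 0.46 and 3.38 CPM in the male pools (log2 difference -0.08, SE 1.72). Cacng8 was at 1.56 and 2.07 CPM in the female pools, against 1.34 and 0.45 CPM in the male pools (log2 difference 1.02, SE 1.505). A single cell, female cell 20, gave 33.2% of all Cacng4 counts and 21.4% of all Cacng8 counts. With a pool left out, the difference of Cacng4 ran from -2.68 (without female P42) to 1.99 (without male P36).

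Both female pools lay on 1 side of both male pools for 5 of the 8 genes: above for Gria1, Gria3, Gria4 and Cacng8 (where limma on means per cell gave -0.021), and below for Gria2 (where thinned cells gave 0.024). Over all genes tested this was so for 33.9% (16.5% above and 17.3% below). Of the 4 pore subunits 3 were higher in female pools, with a median log2 difference of 0.24, where 50.5% of all genes tested were higher and the median was 0.0044. Of the TARPs 3 of 4 were higher, with a median of 0.09. Without the 5 cells highest in excitatory markers, the log2 difference of Gria2 was 0.07 in place of -0.07 and that of Cacng2 was -0.15 in place of 0.05. The excitatory list itself was lower in the female pools for 5 of its 7 genes (median log2 difference -1.53, 0 of 7 called). Slc17a7 was at 20.5 and 6.08 CPM in the female pools, against 90.01 and 71.9 CPM in the male pools. Camk2a was among the 2 genes that were higher, at 130 and 101 CPM in the female pools, against 98.3 and 90.6 CPM in the male pools. The log2 difference was below 0 for 8 of 8 oligodendrocyte markers (median -2.33), and the pools did not overlap for 6 of these. It was above 0 for 5 of 5 red blood cell markers (median 2.80), without overlap for all 5, and 0 were called in both lists. The oligodendrocyte list summed to 213 to 2307 CPM in female P40, 97.4 to 409 in female P42, 151 to 8748 in male P35 and 225 to 12822 in male P36. The red blood cell list summed to 12.3 to 29770.4 CPM in female P40, 15.6 to 5794 in female P42, 3.10 to 4747 in male P35 and 5.996 to 506 in male P36, and no gene of either list had a median of 0. In the list for other interneuron types, the log2 difference was below 0 for 7 of 7 genes (median -1.75, 0 called). The pools did not overlap for 3 of the 7. Sst was at 42.2 and 48.9 CPM in the female pools, against 249 and 96.5 CPM in the male pools, and male cell 5 gave 44.3% of all its counts. That list summed to 9.16 to 1884 CPM in female P40, 53.3 to 486 in female P42, 77.002 to 7347 in male P35 and 66.8 to 3736 in male P36. For microglia markers the log2 difference was above 0 for 6 of 6 genes (median 1.12, 0 called). The female and male pools overlapped for each of these genes, however. The microglia markers summed to 21.8 to 7754 CPM in female P40, with the highest sum in female cell 21. They summed to 27.8 to 513 in female P42, 34.1 to 2155 in male P35 and 4.58 to 1581 in male P36. Again no gene of these lists had a median of 0. The part of these lists in the values of the 8 genes was not tested.

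**Figure D5:**
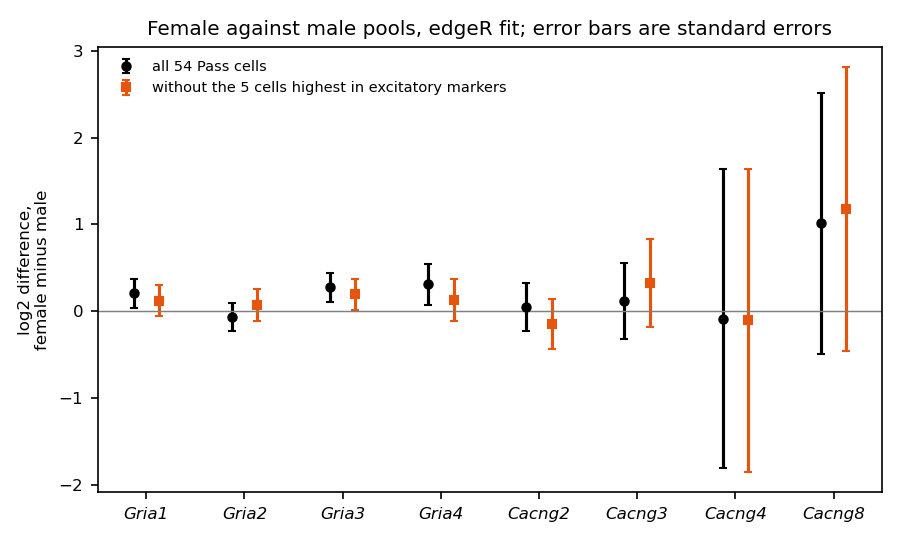
Log2 difference, female minus male, of the 8 genes between pools, with error bars of 1 standard error from edgeR, for all 54 Pass cells (black circles) and without the 5 cells highest in excitatory markers (orange squares). The values of the 4 pore subunits lie between -0.07 and 0.31, and the bars of Cacng4 and Cacng8 are the widest, with SE of 1.72 and 1.505 over all 54 cells.

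Shares were compared as pool means of the values per cell. The Gria2 share was 11.5% and 10.4% in female P40 and P42, against 13.4% and 12.8% in male P35 and P36, a difference of -2.15 percentage points (exact two-sided permutation test over 6 assignments, p = 0.333, the smallest this design allows). Without the 5 cells highest in excitatory markers the difference was 0.13 points. These cells are all male and include those with the highest Gria2 shares, so leaving them out had to lower the male means. Their part in the difference was not tested. The Gria4 share was 20.5% and 18.9% in female P40 and P42, against 18.9% and 14.6% in male P35 and P36 (2.96 points, exact permutation p = 0.667). The Cacng2 share was 48.8% and 40.4% in female P40 and P42, against 43.9% and 45.3% in male P35 and P36 (0.03 points, exact permutation p = 1). With 2 pools per sex this test cannot reach 0.05.

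No gene of the neighbouring lists passed either: 0 of 8 other auxiliary subunits, 0 of 17 trafficking genes, 0 of 3 editing genes and 0 of 6 NMDA subunits in edgeR, with 0, 1, 1 and 1 at an unadjusted p under 0.05, where 5.51% of all genes tested were. DESeq2 called 1 of them, Adarb2 (adjusted p = 0.0156), where it called 179 of the 14354 genes to which it gave an adjusted p (1.25%). Cnih3 was at 44.3 and 28.8 CPM in the female pools, against 61.9 and 59.7 CPM in the male pools (log2 difference -0.73, SE 0.33, edgeR adjusted p = 0.915). Nptxr, a receptor for pentraxins that gather AMPA receptors at synapses onto PV cells, was at 12.6 and 15.6 CPM in the female pools, against 26.8 and 35.2 CPM in the male pools (log2 difference -1.14, SE 0.44, edgeR adjusted p = 0.899). Both had their highest cell in male cell 29, 1 of the 5 cells highest in excitatory markers. Without those 5 cells the log2 difference was -0.32 (SE 0.55) for Cnih3 and -0.36 (SE 0.59) for Nptxr, and the part of the markers in these values was not tested. Adarb2 (log2 difference -4.64, SE 1.58) and Dlg4 (2.96, SE 1.31) each rested on few cells. Grin2a was at 6.64 and 13.7 CPM in the female pools, against 31.3 and 20.7 CPM in the male pools (log2 difference -1.35, SE 0.57, edgeR adjusted p = 0.899), and its difference was -0.71 (SE 0.80) without the 5 cells.

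Membrane values named vrest, rm and cm in the labels, without units, were each given for 49 of the 54 cells (47 have all 3) and were set beside the members as a description. Cacng3 had a Spearman rho of -0.35 (r = -0.22) with rm, with -0.58, -0.68 and -0.23 in female P40, male P35 and male P36 and 0.17 in female P42. Cacng8 had a rho of 0.42 (r = 0.33) with rm and of 0.38 with the number of genes detected, and with no count in 18 of 54 cells it is too sparse for such values to be a finding. The measures rm and cm were themselves related (rho = -0.80). In all, 208 pairs of a member or share with another measure were computed.

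For the 3 genes on which the shares turn, the genes most like each over the 54 cells were listed by Spearman rho of log2(CPM + 1) among 8939 genes with medians of at least 5 CPM. Most like Gria2 were Rev3l (0.58), Msmo1 (0.50) and Ube3a (0.49), where the 99th percentile over all genes was 0.36. Most like Gria4 were Moxd1 (0.67), Necab1 (0.67) and AI593442 (0.60), with a 99th percentile of 0.38. Most like Cacng2 were Fkbp2 (0.53), Bola3 (0.52) and D830030K20Rik (0.51), with a 99th percentile of 0.32. With pool means removed, rho for these 9 genes was 0.48 to 0.69. The highest of 8939 values is high by choice, and no test is given.

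The 4 Fail cells held 0.55 to 5.08 M counts. Their Gria2 shares were 7.10% and 2.93% in female cells 6 and 10 and 7.39% and 13.1% in male cells 3 and 4, within the range of the Pass cells. Cacng3 made up 80.1% of the TARPs in female cell 10, 66.1% in male cell 3 and 39.0% in male cell 4. In male cell 4 Cacng2 led with 39.3%, and Cacng4 made up 21.6% (16.8 CPM from 10 counts). This cell also held 283 CPM of oligodendrocyte precursor markers, all 5 at 1 CPM or more, and their part in the Cacng4 level was not tested. Female cell 6 had fewer than the 50 TARP counts required for a share.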

How the data were processed

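The authors deposited whole-number counts per gene for each cell, not normalized, per the labels and the values of the file. Per the labels' protocols, libraries came from pipette-drawn cytosol and were made with Nextera XT, and reads were aligned with STAR to GRCm38, with edgeR also named, per the submitters' processing notes. Their versions, the counting tool, annotation and strand: not given in the sources used here. Deposited tables of normalized values and neurexin isoforms were not used. All columns matched a labelled cell (0 unmatched), and 0 pairs of cells were identical.

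The 8 genes, the lists and the tests were chosen with earlier results of these data known. CPM is the count over the cell's own total. Shares divide counts by union exon lengths of GENCODE vM21 (GRCm38) and need at least 50 counts over the family. Counts of Pass cells were added up within 4 pools of 1 sex and age, and replicate numbers only name cells. Genes counted in 10 or more Pass cells and kept by filterByExpr were tested with edgeR 4.0.16 (R 4.3.3, trimmed mean of M-values, quasi-likelihood, two-sided, adjusted p under 0.05). The p-values measure the spread between pools only. Pool means of shares were compared by exact permutation (scipy 1.17.1). Scripts were tested on simulated data. List sums and counts include 1 gene that is not reported here. Named genes are the 8 members, all other auxiliary subunits and editing genes, the 2 most abundant and 2 smallest-p genes of the trafficking and NMDA lists, and the 3 genes most like Gria2, Gria4 and Cacng2; Pvalb, Sst, Slc17a7 and Gad1 serve as context. Cells singled out, Pdgfra, Sox10, Tbr1, Cspg4 and Camk2a were chosen after their values were seen. Binomial intervals (exact, 95%) treat cells as independent draws, although cells share animals, so they do not cover the spread between animals. The floor of 3 counts covers counting error only, and no molecular identifiers are named. Alternatives were RLE scaling, no low-count filter, detection in 20 cells, DESeq2 1.42.0, limma 3.58.1 on log2(CPM + 1), thinning each cell to 2.05 M counts, leaving out each pool, female cell 3, the 5 cells highest in excitatory markers or cells with Sst above Pvalb, adding Fail cells, minimum family counts of 10 or 500, summed shares and other lengths.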

Additional observations from a re-analysis of the deposited data

Results flagged for a closer look

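Within the 10 cells of female P42, female cell 20 stood apart for both scarce TARPs. Its Cacng4 level was 21.96 CPM, where the next cell of the pool had 8.02 CPM and the pool median was 0. Its Cacng8 level was 11.95 CPM, where the next cell had 1.64 CPM and the pool median was 0.24 CPM. The 2 values were singled out because the gap to the nearest cell was 0.63 and 0.86 of the range of the pool, above the limit of Dixon's test at 95%. Chance picks out about 1 in 20 groups where values are normally distributed, and 11 measures were compared in this pool. Cacng4 was counted in only 3 of the 10 cells, so its values are far from that distribution, and the rate for such values was not tested. Both values come from 1 library. Female cell 20 held 206 CPM of oligodendrocyte precursor markers, and their part in these values was not tested.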

How the results depend on the processing

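No paired analysis was possible because the cells carry no replicate numbers shared between groups in the labels, only numbers given in accession order. The count of called members was 0 in all 14 alternatives, among them each pool left out (0 to 0), while calls over all genes were 2 in the edgeR fit, 111 with no low-count filter, 179 with DESeq2, 21 without female P40, 3 without female P42, 3 after thinning, 1 without male P35 and 0 without male P36. At an unadjusted p under 0.05, limma and the fit without male P35 each gave 1 member, Gria4 in both. Adjusted p of the members stayed at 0.602 or more.

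The shares per cell moved with the length. The Gria2 share of 12.1% was 14.3% with the longest coding transcript, 23.7% for raw counts and 24.1% with coding lengths. The Gria4 share of 18.4% was 14.9% for raw counts and 14.7% with coding lengths. The Cacng2 share of 45.1% was 55.6% for raw counts, 55.4% with coding lengths and 34.0% from summed counts. Leaving out 1 pool gave 11.7% to 12.5% for Gria2, 17.4% to 19.6% for Gria4 and 43.5% to 46.2% for Cacng2. Cacng2 then led in 15 to 17 of the cells left, against 21 of all 54. Each pool takes 4 to 6 of these 21 cells with it, so this count could only fall.

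The female minus male difference of the Gria2 share turned to 0.13 points without the 5 cells highest in excitatory markers, and ran from -2.71 to -1.60 with 1 pool left out. That of Gria4 ran from 0.78 to 5.14. That of Cacng2, 0.03 points, was -1.07 for raw counts, -1.02 with coding lengths, -0.74 after thinning, -1.29 without female cell 3, -3.78 without the 5 cells, -0.37 with Fail cells, -4.16 without female P40, -0.67 without male P35, and ran up to 4.22.

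Log2 differences also changed sign. Gria2 was 0.024 after thinning and 0.073 without the 5 cells, Cacng2 -0.15 without the 5 cells and Cacng8 -0.021 in limma. With pools left out, Gria1 ran from 0.09 to 0.34, Gria2 from -0.11 to -0.03, Gria3 from 0.25 to 0.31, Gria4 from 0.03 to 0.65, Cacng2 from -0.19 to 0.34, Cacng3 from -0.69 to 0.64, Cacng4 from -2.68 to 1.99 and Cacng8 from 0.44 to 1.99. Of the other genes, in limma Cnih2 was 0.081, Shisa7 -0.12 and Adar -0.25, and after thinning Cnih2 was 0.024 and Adar -0.19. Without the 5 cells Cnih2 was 0.020 and Shisa9 -0.12. Without female cell 3 Shisa7 was -0.28, Gsg1l 0.034 and Adar -0.11, and Shisa9 was -0.46 in cells with Pvalb above Sst. With pools left out, Cacng5 ran from -0.47 to 0.42, Cnih2 from -0.39 to 0.12, Shisa7 from -0.62 to 1.30, Shisa9 from -0.62 to 0.46, Gsg1l from -0.39 to 0.011, Adar from -0.27 to 0.35 and Grin1 from -0.30 to 0.28. DESeq2 called Adarb2 (-4.63, adjusted p = 0.0156), which edgeR did not. The cause of these changes was not tested. Cacng4, Cacng8, Shisa6, Cacng5 and Cacng7 are limited by depth.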
